A study of Mus musculus with 6 samples.

Results

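Adhesion G protein-coupled receptors were followed in E14 mouse embryonic stem cells with and without a knockdown of Nat10, the gene of an RNA acetyltransferase. The members were chosen by name, as every row of the count table whose symbol begins with Adgr, together with Celsr1, Celsr2 and Celsr3. This gave 31 genes of 31641, of which 24 had enough counts to be tested among 18019 genes tested in all. The 31 comprise 30 protein-coding genes and 1 pseudogene, Adgrd2-ps.

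The study sequenced messenger RNA in 6 libraries. The 3 control libraries (CON) came from E14 cells labelled Nat10 WT and grown without doxycycline, and the 3 knockdown libraries (KD) from E14 cells labelled Nat10 KD and given doxycycline. Every KD library and no CON library had the drug, so doxycycline and the knockdown cannot be told apart. How doxycycline lowers Nat10 is not stated in the labels. Nor do they call the replicates independent cultures, and p-values here may rest on technical spread alone.

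Adhesion receptors join a long extracellular region, often with domains that bind matrix or other cells, to the membrane-spanning part of a G protein-coupled receptor. Most carry a domain next to the membrane in which the protein cuts itself, and the short stretch left at the cut can act as a tethered activator. Signals pass through G proteins, for several members through the G12/13 class to the small GTPase RhoA. The family is best known from neurons, myelinating glia, blood vessels, immune cells and the planar polarity of epithelia.

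Levels are CPM, a gene's share of a library's counts, scaled between libraries by TMM, a method that sets the typical gene to no change. Group values are the mean ± SD of 3 libraries, fold changes are KD over CON, and a change was called at an adjusted p under 0.05 in edgeR's quasi-likelihood test with Benjamini-Hochberg adjustment over all 18019 genes. Library totals ranged from 35304394 to 39450202 counts in CON and from 33770755 to 39524273 counts in KD. The target gene Nat10 had 146, 151 and 150 CPM in CON and 26.2, 27.2 and 28.7 CPM in KD. KD replicate 3 stood apart from the other KD libraries: its counts differed from theirs with a chi-square per degree of freedom of 14.3 and 10.7, against 2.69 to 5.03 for the remaining replicate pairs. All 12 stem cell markers were present and fell, with a summed level of 7826 to 7856 CPM in CON and 2740 to 2872 CPM in KD. In bulk RNA, fewer cells of a type and less RNA per cell cannot be told apart.

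Markers of other cell types moved in both directions. Of 12 neuron markers 11 were matched and tested, 5 rose and 4 fell, and their sum went from 163 to 164 CPM in CON to 93.7 to 104 CPM in KD. Stmn2 held most of the CON sum and fell from 94.6 ± 1.97 to 21.8 ± 1.34 CPM, while Syp rose from 0.904 ± 0.0816 to 29.1 ± 0.828 CPM. Of 12 blood and macrophage markers 11 were matched and 7 tested, 2 rose and 3 fell, and their sum went from 237 to 241 CPM in CON to 99.3 to 114 CPM in KD. Laptm5 held most of that sum and fell, while Ptprc, which encodes the pan-leukocyte antigen CD45, had 0.254 ± 0.127 CPM in CON and no count in KD. The 2 that rose were Cd68, from 16.1 ± 0.8 to 22.6 ± 0.984 CPM, and Lyz2. Lyz2 had no count in CON and 17, 26 and 14 counts in KD. Of 12 fibroblast markers 10 were matched and 5 tested, 3 rose and 1 fell, and the sum went from 58.3 to 59.9 CPM in CON to 83.6 to 91.6 CPM in KD. Fap and Twist2 were at 0 in every CON library. Their KD counts, 4, 0 and 0 for Fap and 2, 1 and 0 for Twist2, were too few to test. All 12 primitive endoderm markers were tested, 3 rose and 5 fell, and the sum was 916 to 938 CPM in CON and 954 to 985 CPM in KD. Sparc, which held most of that sum, fell from 590 ± 6.18 to 513 ± 6.72 CPM, while Lamb1 rose from 217 ± 3.34 to 363 ± 10.4 CPM. The log2 fold change was below 0 for 9 of the 12. The part of such cells in the results below was not tested.

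Receptor genes moved both up and down. In the tested set of 24 there were 10 rises, 5 falls and 9 genes that did not pass, while over all genes tested 32.2% rose and 30.8% fell. The 15 called members thus stand beside a background of 63% called in either direction, and the share of members called is near it. The groups did not overlap in 16 of the 24, against 67.1% of all genes tested. Of the 24 tested members 6 rose over 2-fold and 2 fell over 2-fold, against 9.73% and 7.11% of all genes tested. Among those 6, Adgra1 and Adgrl4 met the count filter only through their KD libraries. The median log2 fold change was 0.23 over the tested members and 0.02 over all genes tested. Scaled by total count only, the median of all genes moved up by 0.23, and there were 15 rises and 4 falls among members, against 8280 rises and 3535 falls over all genes. Without KD replicate 3 the members gave 11 rises, 5 falls and 8 that did not pass.

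**Figure D1:**
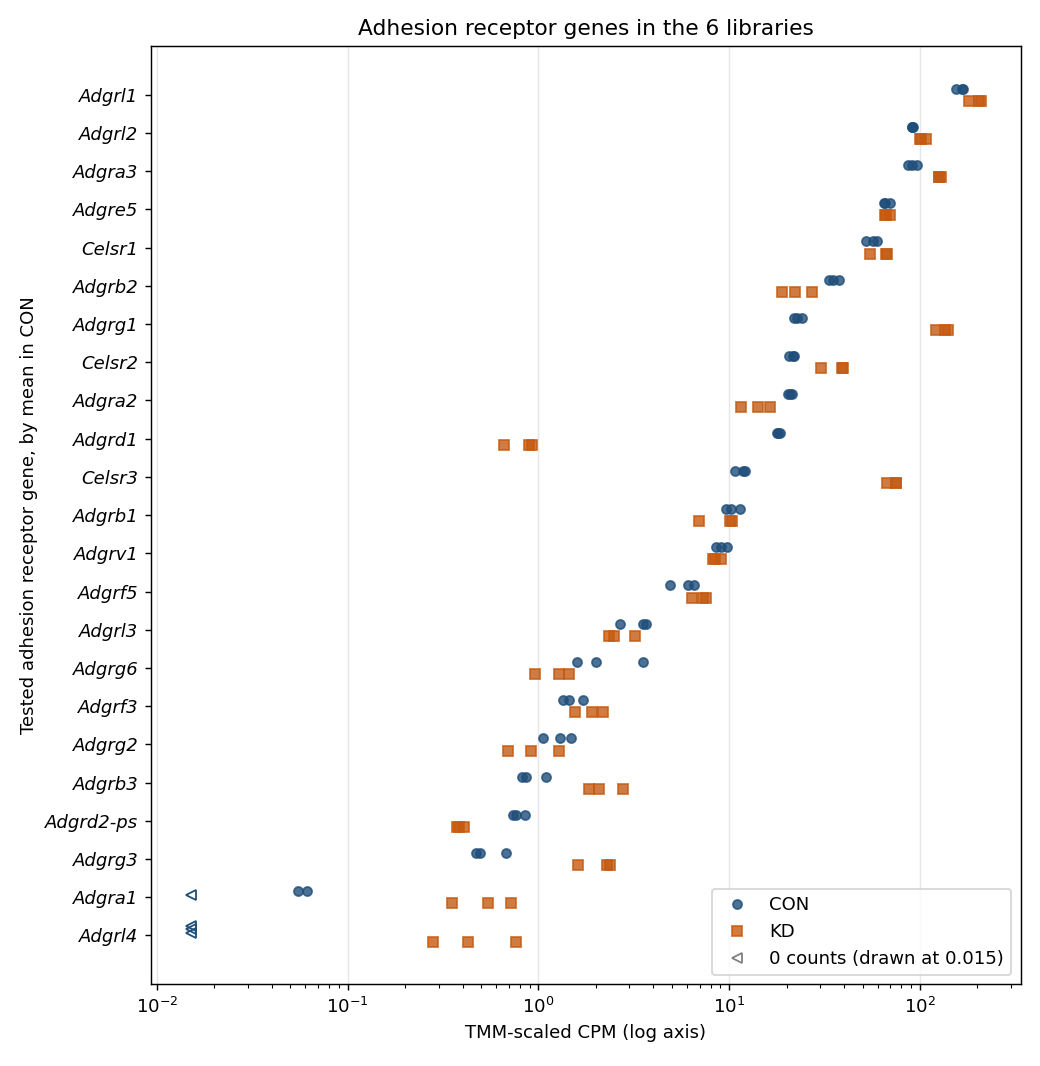
TMM-scaled CPM on a log axis for 23 of the 24 tested receptor genes, ordered by the mean in CON. Each circle is 1 CON library and each square 1 KD library, and open triangles mark libraries with 0 counts. Adgrg1 and Celsr3 lie to the right of their CON values in all 3 KD libraries, and Adgrd1 lies far to the left of them.

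Adgrg1, also known as GPR56, is a receptor of cortical development and of blood cells that binds collagen III and transglutaminase 2 and signals through G12/13. It had 21.9, 24.1 and 22.6 CPM in the CON libraries and 141, 135 and 122 CPM in the KD libraries. Every KD library was far above every CON library. The rise was 5.79-fold (log2 fold change 2.53, SE 0.07, edgeR adjusted p = 1.41e-13). Its range over the 13 alternative analyses was 2.48 to 2.76 on the log2 scale. In GENCODE M21 (GRCm38) it spans bases 94974751 to 95014217 of chromosome 8, forward strand, and no exon of another annotated gene overlaps its exons.

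A relative, Adgrg3, starts 3475 bases after Adgrg1 on the same strand, with no protein-coding gene between them. Adgrg3, also called GPR97 and known from granulocytes, had 0.47, 0.495 and 0.676 CPM in CON and 2.39, 1.61 and 2.3 CPM in KD. It rose 3.83-fold (log2 fold change 1.94, SE 0.28, edgeR adjusted p = 1.73e-05) from raw counts of only 16, 18 and 22 in CON, against 100, 69 and 84 in KD. Per kilobase of gene length, CON levels were 4.22 CPM for Adgrg1 and 0.0792 CPM for Adgrg3. Whether reads running past the end of Adgrg1 reach Adgrg3 was not tested.

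The promoters of the neighbours Adgrg1 and Adgrg3 are shown, since both rose, with that of Celsr3 for comparison as the other member with a large rise at a sizeable level. RefSeq (GRCm38.p6) promoters run from 250 bases before to 50 bases after a start, and 22 of the 31 genes had 1 or more in the table, 26 promoters in all. Each is written 5′ to 3′ on the forward strand, and capitals mark a match on either strand to 1 of 4 short motifs. The motif of the GC box was searched as GGGCGG. The CCAAT box has its letters as its name. The TATA box was searched as TATAAA, and the response element for cyclic AMP as the 8 letters TGACGTCA. No matches overlapped each other in the sequences shown. Not every member with a member beside it changed with it: Adgre5 lies 158779 bases from Adgrl1 on chromosome 8 with no protein-coding gene between them, and did not pass where Adgrl1 rose.
Adgrg1, upstream start, chr8:94976859-94977158: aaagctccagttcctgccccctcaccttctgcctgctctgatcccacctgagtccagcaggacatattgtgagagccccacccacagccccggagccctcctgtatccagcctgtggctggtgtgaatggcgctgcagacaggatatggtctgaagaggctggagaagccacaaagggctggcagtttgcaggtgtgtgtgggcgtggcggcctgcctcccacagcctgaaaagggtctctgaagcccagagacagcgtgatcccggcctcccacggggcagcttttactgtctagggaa
Adgrg1, downstream start, chr8:94984149-94984448: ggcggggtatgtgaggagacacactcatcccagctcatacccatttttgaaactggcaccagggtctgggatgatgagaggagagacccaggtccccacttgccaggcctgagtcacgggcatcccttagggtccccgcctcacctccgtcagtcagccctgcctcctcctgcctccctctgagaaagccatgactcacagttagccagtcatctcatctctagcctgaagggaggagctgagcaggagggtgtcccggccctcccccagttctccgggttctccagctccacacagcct
Adgrg3, chr8:95017442-95017741: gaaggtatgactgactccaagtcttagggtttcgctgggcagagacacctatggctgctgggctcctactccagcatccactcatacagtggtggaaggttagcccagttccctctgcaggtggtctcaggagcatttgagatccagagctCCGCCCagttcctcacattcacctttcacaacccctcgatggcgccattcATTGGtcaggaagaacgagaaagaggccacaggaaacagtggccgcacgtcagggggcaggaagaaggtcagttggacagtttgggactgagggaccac
Celsr3, chr9:108825795-108826094: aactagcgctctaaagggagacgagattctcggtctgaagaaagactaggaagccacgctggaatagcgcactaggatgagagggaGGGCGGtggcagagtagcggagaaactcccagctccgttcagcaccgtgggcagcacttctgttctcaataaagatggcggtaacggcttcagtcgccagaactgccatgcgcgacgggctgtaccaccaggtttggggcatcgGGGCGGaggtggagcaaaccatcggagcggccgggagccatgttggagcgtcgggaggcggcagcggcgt

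Neither of the Adgrg1 promoters shown held any of the 4 motifs. Both lie inside the GENCODE span of Adgrg1, whose start at base 94974751 was not searched. The Adgrg3 promoter held 1 GC box and 1 CCAAT box, both on the reverse strand, and the Celsr3 promoter held 2 GC boxes. A GC box was found in 35.7% of 32851 promoters of this length and a CCAAT box in 37.4%, a TATA box in 13.6% and the cAMP element in 1.79%. Among the 26 promoters of members, 14 held a GC box, 6 a CCAAT box, 2 a TATA box and 0 the cAMP element. These 26 are not independent, since 2 promoters of Adgrl3 overlap and share their GC boxes. Member promoters were also richer in G and C, with a median of 59% and 11 CpG dinucleotides, against 52.7% and 7 over all promoters. The Adgrg1 promoters had 7 and 6 CpG dinucleotides and the Adgrg3 promoter 7, near the median of 7 over all promoters, while the Celsr3 promoter had 25. These are matches of letters and do not show binding.

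The other G members were scarce. Adgrg6, also called GPR126, which Schwann cells need to myelinate axons, fell 1.94-fold, from 3.55, 2.01 and 1.6 CPM in CON to 1.29, 0.958 and 1.45 CPM in KD (log2 fold change -0.96, SE 0.29, edgeR adjusted p = 0.00897). All KD values were lower. CON replicate 1 was well above the others, and without it the log2 fold change was -0.57 and the call was lost (edgeR adjusted p = 0.0919). Adgrg2, known from the ducts of the male reproductive tract, had 1.28 ± 0.215 CPM in CON, 0.963 ± 0.3 CPM in KD and a log2 fold change of -0.42 that did not pass (SE 0.29, edgeR adjusted p = 0.226). Adgrg4 and Adgrg7 were too low to be tested, Adgrg4 with CON counts of 2, 6 and 6 and KD counts of 4, 4 and 2, and Adgrg7 with 2 counts in all, from KD replicate 2.

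The 3 Celsr genes encode cadherins with the membrane-spanning part of a receptor, vertebrate counterparts of the fly polarity protein Flamingo. Celsr3, which guides axon tracts in the brain, had 11.8, 10.8 and 12.1 CPM in CON and 74.7, 74.7 and 66.9 CPM in KD. All KD libraries were well above all CON libraries, and the rise was 6.25-fold (log2 fold change 2.64, SE 0.07, edgeR adjusted p = 2.97e-13). Celsr2, which acts in neurons and in the cilia of the cells lining the brain's ventricles, had 21.7, 20.5 and 21.9 CPM in CON and 39.6, 39.1 and 30.3 CPM in KD. It rose 1.7-fold with no overlap (log2 fold change 0.77, SE 0.09, edgeR adjusted p = 3.19e-06), and KD replicate 3 was the lowest KD library. Celsr1, which aligns epithelial cells and hair follicles, had 51.9, 59.3 and 56.7 CPM in CON and 67, 66.6 and 54.6 CPM in KD. KD replicate 3 fell inside the CON range and the difference did not pass (log2 fold change 0.17, SE 0.08, edgeR adjusted p = 0.0738). Without that library it passed as a rise of 0.25 on the log2 scale (edgeR adjusted p = 0.000151). It also passed as a rise with libraries scaled by total count only (0.40, edgeR adjusted p = 0.000309) and with no count filter (0.17, edgeR adjusted p = 0.0195). The fit with no count filter gave far smaller p-values for some members at much the same change. For Adgra3 the edgeR adjusted p was 1.95e-17 there, against 6.7e-07 in the main fit.

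Genes that work with the Celsr proteins in planar cell polarity were followed as a list of 23. Among the 22 tested there were 11 rises, 3 falls and 8 that did not pass. Over all genes tested 32.2% rose, 30.8% fell and 63% were called, and the 14 of 22 called here are near that share. Their median log2 fold change was 0.45, against 0.02 over all genes tested. Fzd6, a Frizzled receptor of the pathway, rose from 17.1 ± 1.64 to 34.2 ± 0.621 CPM, Prickle1 from 11.3 ± 0.895 to 22.5 ± 1.63 CPM and the Dishevelled gene Dvl3 from 63.8 ± 2.77 to 101 ± 6.05 CPM (n = 3 libraries per group). The 3 that fell were Dvl2 and both Van Gogh genes, Vangl1 and Vangl2, with log2 fold changes of -0.45, -0.27 and -0.32. Scaling by total count only gave 16 rises and 1 fall, with 8280 rises and 3535 falls over all genes, and leaving out KD replicate 3 gave 11 rises and 5 falls.

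The latrophilins are neuronal receptors that bind teneurins and FLRT proteins across synapses. Adgrl1 had 155, 168 and 166 CPM in CON and 209, 204 and 182 CPM in KD. It rose 1.22-fold with no overlap (log2 fold change 0.28, SE 0.06, edgeR adjusted p = 0.000365). Adgrl2 had 92.1, 90.8 and 91.4 CPM in CON and 99.8, 108 and 101 CPM in KD. All KD values were higher, but the rise was only 1.13-fold (log2 fold change 0.17, SE 0.05, edgeR adjusted p = 0.00618), and it did not pass without KD replicate 2 (edgeR adjusted p = 0.0663). Adgrl3 had 3.28 ± 0.533 CPM in CON and 2.68 ± 0.478 CPM in KD, with overlap, and did not pass (log2 fold change -0.30, SE 0.19, edgeR adjusted p = 0.176). Without KD replicate 3 it passed as a fall of 0.46 on the log2 scale (edgeR adjusted p = 0.0498), in the opposite direction to Adgrl1 and Adgrl2.

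Adgrl4, also called ELTD1 and known from endothelial cells, was without counts in all CON libraries and had 18, 12 and 28 counts in KD. At 0.492 ± 0.248 CPM in KD it was at least 5.61-fold higher than the floor of 3 counts per CON library (edgeR adjusted p = 0.000124). Adgrl4 met the count filter only through its KD libraries, so that p-value is no separate support for the rise. It remained scarce, at 0.0862 CPM per kilobase of gene length in KD against 23.1 for Adgrl1.

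Ligands and other binding partners of the family formed a list of 28 genes. Among the 23 tested there were 9 rises, 7 falls and 7 that did not pass. The share called, 16 of 23, stands beside 63% of all genes tested, of which 32.2% rose and 30.8% fell. The median log2 fold change was 0.02, as over all genes tested. Tenm4, a teneurin, fell 4.76-fold from 41.5 ± 1.49 to 8.72 ± 0.531 CPM. Prnp, the prion protein gene, whose product binds Adgrg6, rose 2.15-fold from 21.6 ± 1.47 to 46.5 ± 0.571 CPM. Plxdc2, whose product has been reported to bind Adgrd1, rose 2.61-fold and the integrin gene Itgav 1.52-fold. Plxdc1 fell 4.19-fold, and the basement membrane collagen gene Col4a1 fell 1.32-fold, from 301 ± 6.62 to 228 ± 5.3 CPM.

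**Figure D2:**
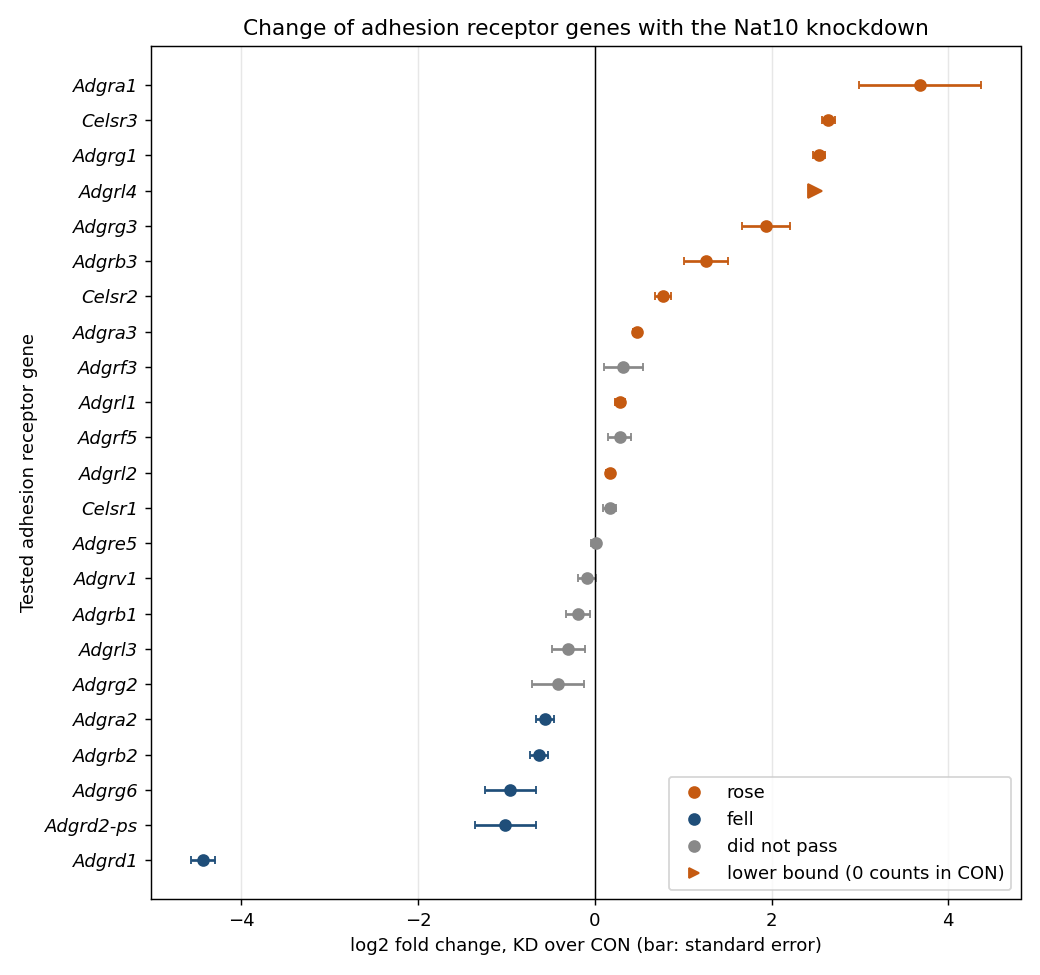
Log2 fold change of KD over CON with its standard error for 23 of the 24 tested receptor genes, coloured by the edgeR call at an adjusted p under 0.05. Adgrl4 is drawn at its lower bound because it had 0 counts in CON, and the bar of Adgra1 rests on 4 counts in CON. Adgrd1 has the largest fall, at -4.44, and 8 genes in grey lie close to 0.

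Adgrd1, also called GPR133, raises cyclic AMP through the G protein Gs. It had 18, 18.5 and 17.8 CPM in CON and 0.93, 0.888 and 0.656 CPM in KD. The raw counts were 615, 671 and 580 against 39, 38 and 24, and the CON libraries lay close together. The fall was 21.7-fold (log2 fold change -4.44, SE 0.14, edgeR adjusted p = 8.01e-13), and it ranked 12 among all falls in size over the 18019 genes tested. It spans bases 129096750 to 129204599 of chromosome 5, forward strand (GRCm38), with no exon shared with another annotated gene. Adgrd2-ps, the mouse pseudogene of the other D member, had raw counts of 26, 31 and 24 in CON, against 17, 16 and 14 in KD. Its level went from 0.763, 0.852 and 0.738 CPM to 0.406, 0.374 and 0.383 CPM, a 2.02-fold fall (edgeR adjusted p = 0.0187). That call was lost without CON replicate 2, KD replicate 2 or KD replicate 3 (edgeR adjusted p = 0.0633, 0.0565 and 0.0504) and with libraries scaled by total count only (0.0581). It shares 183 exonic bases with Gm13587 on the same strand.

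Of the A members, Adgra2, or GPR124, takes part in vessel growth and works with Reck as a co-receptor for Wnt7. Adgra2 had 20.2, 21.3 and 20.8 CPM in CON and 16.3, 14.1 and 11.6 CPM in KD. Its KD values were all lower and more scattered, and the fall was 1.48-fold (log2 fold change -0.57, SE 0.10, edgeR adjusted p = 0.000219). Adgra3, or GPR125, had 90.6, 87 and 96.5 CPM in CON and 126, 126 and 129 CPM in KD. It rose 1.39-fold (log2 fold change 0.48, SE 0.05, edgeR adjusted p = 6.7e-07), with all KD values higher and close to each other. Adgra1 was nearly absent from CON, with raw counts of 0, 2 and 2, and low in KD, with 30, 15 and 20. The summed counts, scaled for library size, gave a ratio of 13.8 with a 95% counting interval from 5.14 to 52.1, and the test passed (edgeR adjusted p = 0.00025). Adgra1 met the count filter only through its KD libraries, so that p-value is no separate support for the rise. With counts divided by 2, as if both mates of a pair had been counted, the interval ran from 3.47 to 117. Both intervals cover counting error only.

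The B members, first named as brain angiogenesis inhibitors, are mainly neuronal. Adgrb2 was the most abundant per kilobase of gene length, at 5.44 ± 0.328 CPM per kilobase in CON against 1.44 ± 0.127 for Adgrb1. In CPM it had 33.3, 37.5 and 35 CPM in CON and 27.3, 22.1 and 18.9 CPM in KD. It fell 1.55-fold (log2 fold change -0.63, SE 0.10, edgeR adjusted p = 7.55e-05), and the KD values were all lower, KD replicate 3 the lowest. Adgrb1, a receptor for dying cells that acts through the ELMO and DOCK proteins, had 9.6, 11.4 and 10.3 CPM in CON and 10.4, 10.1 and 6.94 CPM in KD. Its groups overlapped and it did not pass (log2 fold change -0.19, SE 0.14, edgeR adjusted p = 0.249). With libraries scaled by total count only, its change had the other sign, at 0.04. Adgrb3, a synaptic receptor for C1q-like proteins, had 0.822, 1.1 and 0.861 CPM in CON and 2.77, 2.08 and 1.83 CPM in KD. It rose 2.39-fold (log2 fold change 1.26, SE 0.25, edgeR adjusted p = 0.000351) from 28, 40 and 28 counts to 116, 89 and 67. The B members thus showed 1 fall, 1 rise and 1 difference that did not pass.

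Adgre5, also called CD97, is a leukocyte receptor for the complement regulator CD55 and was one of the most abundant members in both groups. It had 64.8, 65.8 and 69.3 CPM in CON and 69.3, 65.3 and 66.6 CPM in KD. The values overlapped almost wholly (log2 fold change 0.01, SE 0.05, edgeR adjusted p = 0.883). With libraries scaled by total count only, it passed as a rise of 0.24 on the log2 scale (edgeR adjusted p = 0.000957). Of its 3757 exonic bases, 895 are shared with Ddx39 on the opposite strand, which fell from 155 ± 4.2 to 87.5 ± 2.49 CPM (log2 fold change -0.83). Without a stated strand setting the reads of the 2 genes there cannot be told apart. The same limit applies to other members with an overlap on the opposite strand. The largest of these were 1582 bases of Adgrl3 with Gm16054, 1107 of Adgrl1 with Gm10644 and 441 of Adgrg6 with Gm46212. Cd55 itself rose from 18.8 ± 1.31 to 27.7 ± 3.98 CPM. Adgre1, which encodes the macrophage antigen F4/80, had 2 counts in all, in KD replicate 1, and Adgre4 had 2 counts in all, in CON replicate 1.

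None of the F members was called. Adgrf5, which keeps the pool of lung surfactant in balance, had 6.54, 6.05 and 4.92 CPM in CON and 6.42, 7.31 and 7.57 CPM in KD (log2 fold change 0.28, SE 0.13, edgeR adjusted p = 0.0786). Adgrf3 had 1.5 ± 0.184 CPM in CON and 1.88 ± 0.319 CPM in KD (log2 fold change 0.32, SE 0.22, edgeR adjusted p = 0.22). Both passed as rises with libraries scaled by total count only (0.51, edgeR adjusted p = 0.00337, and 0.55, edgeR adjusted p = 0.0396). Adgrf1, Adgrf2 and Adgrf4 were too low to be tested. Their raw counts in CON against KD were 2, 4 and 6 against 12, 10 and 14 for Adgrf1, 6, 3 and 10 against 6, 2 and 0 for Adgrf2, and 2, 10 and 1 against 0, 2 and 0 for Adgrf4. With no count filter none of the 7 untested members passed, the smallest adjusted p in edgeR being 0.162, for Adgrf1. Adgrf4 and Adgrf2 lie 16652 bases apart on chromosome 17, and Adgrf1 and Adgrf5 35714 bases apart on the same chromosome. Of these neighbours Adgrf5 alone had enough counts to be tested.

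Adgrv1, the very large receptor of the links between hair-cell stereocilia, did not pass. It had 9.68, 8.5 and 9.07 CPM in CON and 8.42, 8.22 and 9.05 CPM in KD (log2 fold change -0.09, SE 0.10, edgeR adjusted p = 0.492). With libraries scaled by total count only, the difference had the other sign, at 0.14, and did not pass either.

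Signalling partners of the receptors formed a list of 29 G protein, arrestin, receptor kinase, exchange factor and small GTPase genes. All were tested, giving 14 rises, 9 falls and 6 that did not pass. Over all genes tested 32.2% rose and 30.8% fell. The median log2 fold change was 0.11, against 0.02 over all genes. Adcy6, an adenylate cyclase, rose 3.37-fold from 12.3 ± 0.572 to 41.6 ± 1.53 CPM. Gnao1, the neuronal Go alpha subunit, rose 2.46-fold and the arrestin gene Arrb1 1.73-fold. Rhoa fell from 290 ± 10.9 to 223 ± 2.55 CPM, the receptor kinase gene Grk6 fell 1.46-fold and Gnai1 fell 1.61-fold. Gna12 and Gna13, the G proteins of the Adgrg1 pathway, had log2 fold changes of 0.01 (edgeR adjusted p = 0.947) and -0.24. With libraries scaled by total count only, 19 of the list rose and 3 fell, while over all genes 8280 rose and 3535 fell.

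To compare members with each other, CPM were divided by the gene length in kilobases that the authors' FPKM imply. In CON the leading genes were Adgrl1 at 19 ± 0.8, Adgre5 at 17.7 ± 0.64 and Adgra3 at 11.3 ± 0.595 CPM per kilobase, followed by Adgrl2, Adgrb2, Celsr1 and Adgrg1 at 6.44, 5.44, 5.08 and 4.22. The first 2 had values of 18.1, 19.6 and 19.3 and of 17.2, 17.5 and 18.5 and overlapped. In KD the order changed at its head. Adgrg1 went from place 7 to place 1, at 26, 24.8 and 22.4 CPM per kilobase, and its range overlapped that of Adgrl1, at 24.3, 23.7 and 21.2. Celsr3 went from place 12 to place 6, and Adgrd1 from place 9 to place 23. Adgrg1 held 5.13 ± 0.2% of the family's summed length-scaled level in CON and 21.4 ± 0.489% in KD. Adgre5, whose own level was much the same, went from 21.5 ± 0.503% to 15.7 ± 0.752% of that sum. The summed CPM of all 31 genes was 621, 643 and 646 in CON, against 912, 894 and 823 in KD. Leaving out Adgrg1 and Celsr3 it was 587, 608 and 611 against 696, 685 and 635. For most members these lengths equal all exons of GENCODE M21 joined, so a gene whose cells use a short transcript appears lower than it is. The exceptions were Adgrl4 at 5704 bases against 4585, Adgrd2-ps at 3465 against 2662 and Adgrf2 at 3668 against 3284.

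**Figure D3:**
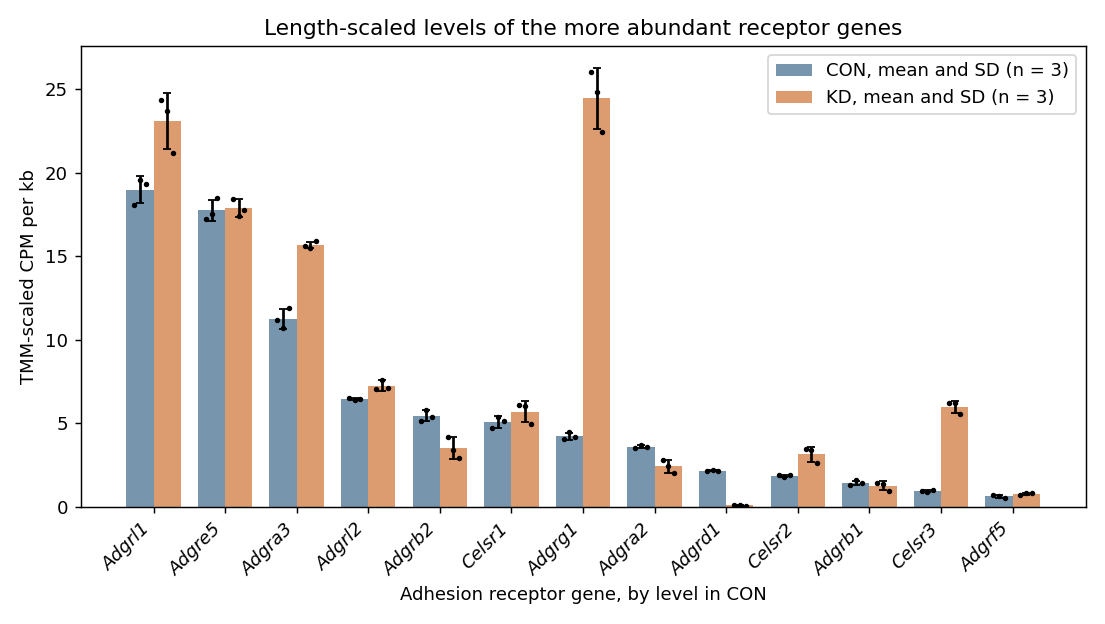
TMM-scaled CPM per kilobase of gene length for the 13 receptor genes that were among the 12 highest in CON or in KD, ordered by their level in CON. Bars are the mean of 3 libraries, error bars the SD and points the single libraries. Adgrg1 reaches the height of Adgrl1 in KD, and the bar of Adgrd1 nearly vanishes.

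Calls of the small changes depended on how the libraries were scaled. TMM factors were 0.922 to 0.926 in CON and 1.08 in KD, so that scaling by total count moved each receptor gene up by about the same step. Under that scaling 5 further members passed as rises, among them Adgre5, Adgrf3, Adgrf5 and Celsr1, and Adgrd2-ps no longer passed as a fall. Adgra2, Adgrb2, Adgrd1 and Adgrg6 passed as falls under both, with log2 fold changes of -0.34, -0.40, -4.21 and -0.73 by total count. Adgrg1, Celsr3, Adgrg3, Adgrb3, Celsr2, Adgra3, Adgrl1, Adgrl2, Adgra1 and Adgrl4 passed as rises under both.

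**Figure D4:**
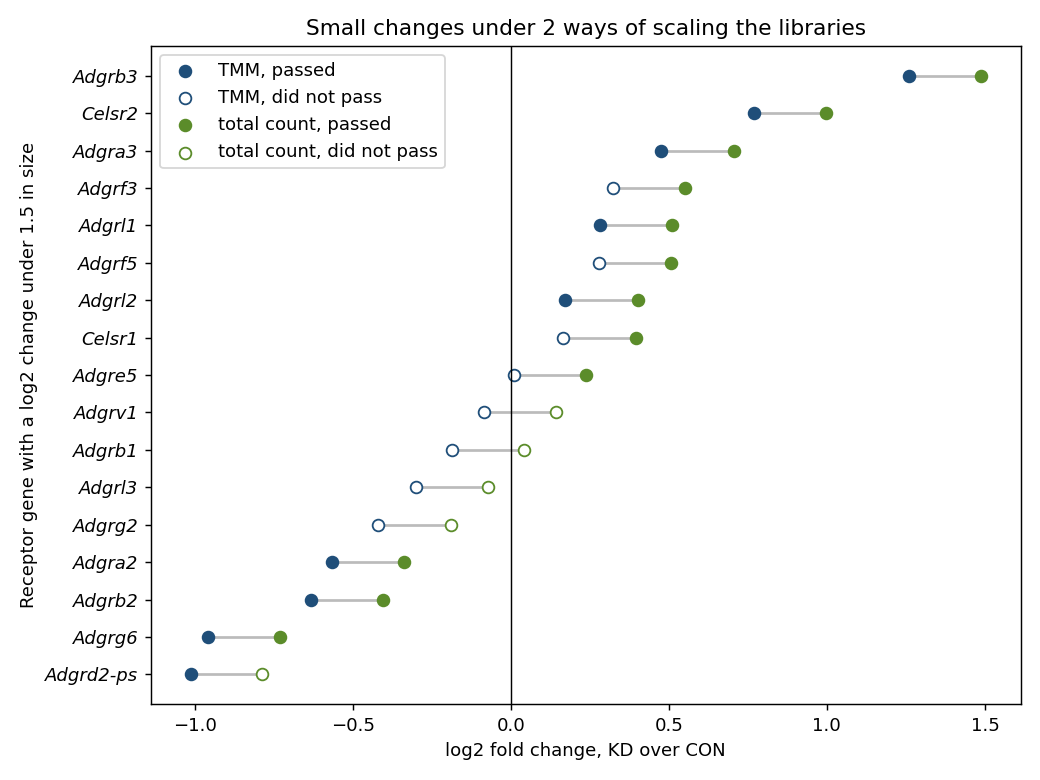
Log2 fold change of KD over CON for 17 receptor genes whose change under TMM was below 1.5 in size, with libraries scaled by TMM (blue) or by total count only (green). Filled points passed at an adjusted p under 0.05 in edgeR and open points did not, and grey lines join the 2 values of a gene. All points move to the right by a like amount, and 4 genes become filled.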

How the data were processed

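Poly(A) RNA of 6 E14 libraries (3 CON, 3 KD) was sequenced. Per the submitters' processing notes, FastQC 0.11.9, STAR 2.5.3a, featureCounts and mm10 were used; the sources used here give neither the strand setting nor the annotation release. The authors deposited raw counts per gene, per the file headers, with FPKM values, which the authors made from counts, length and library total. Gene length implied by count and FPKM agreed within 1% across libraries in all 27594 rows with more than 1 value. The authors' deposited log2 fold change and adjusted p-value columns were not used. Of counts from 1 to 20, 70 to 71.7% were even in each library, so low counts may stand for fewer fragments than their value. Whether both mates of a pair were counted is not stated in the sources used here. A single count was worth 0.0234 to 0.0307 CPM after scaling.

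Analysis used R 4.3.3, edgeR 4.0.16 (filterByExpr, TMM, robust quasi-likelihood test of KD against CON over 18019 genes) and, as an alternative, DESeq2 1.42.0. The standard error is the log2 fold change over the square root of F. Positions came from GENCODE M21 (GRCm38), which held all 31 genes. Members and lists were chosen with earlier results of these data known. Members are named, except 1 tested gene that is counted but not reported here; of each partner list, up to 3 genes per direction by smallest p were named, and Cd55, Gna12, Gna13, Laptm5, Ptprc, Fap, Twist2 and Ddx39 were added after their values were seen. Alternatives were DESeq2, other scalings and filters, a replicate block, counts divided by 2, and each library left out.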

Additional observations from a re-analysis of the deposited data

How the results depend on the processing

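Under the alternatives, 13 of the 24 tested members kept their direction and their side of the threshold wherever they were tested. With libraries scaled by total count only, 3535 of all genes fell and 8280 rose, 5 members did not pass, and the log2 fold change turned to 0.041 for Adgrb1 and 0.14 for Adgrv1. With no count filter 15 members did not pass: 7 more were tested and did not pass, and Celsr1 passed as a rise. The change of Adgre5, which did not pass, turned to -0.0038 with DESeq2 and with RLE factors, and to -0.020, -0.0033 and -0.021 without CON replicate 1, CON replicate 2 and KD replicate 1. Leaving out 1 library at a time, it ranged from -0.021 to 0.034. The cause was not tested. With counts divided by 2, or with at least 1 CPM in 3 libraries, 8 members rose, because Adgra1 and Adgrl4 were no longer tested. Leaving out 1 library in turn gave 9 to 11 rises and 4 or 5 falls among members. The numbers of the replicates were not seen to pair the samples. Deviations of same-numbered libraries correlated at -0.32, 0.17 and -0.15, and not every library correlated best with its own number. Deviations from a mean of 3 libraries depend on each other, so this check cannot exclude pairing. With the replicate block, 10 members rose, 5 fell and 9 did not pass, and 5559 of all genes rose and 5347 fell. Depth limits the 7 untested members and the sizes of the changes of Adgra1 and Adgrl4.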
